A study of Arabidopsis thaliana with 20 samples.

Results

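The open chromatin of dark-grown Arabidopsis thaliana seedlings was compared with that of dark-grown seedlings moved to light for 30 min. A peak of the 30 min list that shared no base with any dark peak was called gained, and a dark peak that shared no base with any 30 min peak was called lost. By this rule 3034 of 28824 nuclear peaks after 30 min of light were gained, a share of 10.5% (95% Wilson interval 10.2 to 10.9%). Of 28917 nuclear peaks in the dark, 3124 were lost, a share of 10.8% (10.5 to 11.2%). Gained and lost peaks together are 6158 of the 216961 nuclear peaks in the 7 lists of the series.

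Peaks come from DNase I-seq, which sequences the short fragments that the nuclease DNase I cuts out of accessible DNA. All seedlings were 7 days old, of the Col-0 background, and carried the INTACT transgenes UBQ10:NTF::ACT2:birA, which tag nuclei with biotin so that they can be captured. The dark group was kept without light (16 h at 22 °C and 8 h at 20 °C each day), and the other group was grown the same way before its 30 min of light. The other 5 lists come from dark-grown seedlings given 3 h of light or moved for 24 h to LD (16 h light at 22 °C and 8 h dark at 20 °C), and from LD-grown seedlings that were untreated, sprayed with 0.5% ethanol and left for 3 h, or heat-shocked for 30 min at 45 °C. UBQ10 and ACT2 are promoters active in most plant tissues, so the captured nuclei are a mixture, and fewer cells with an open site cannot be told apart from a less open site in each cell. Each condition has 1 library, so no difference has a replicate check and no p-value is given. The intervals below cover counting error over peaks only.

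A seedling in the dark grows a long hypocotyl and keeps its plastids undeveloped. Phytochrome-interacting factors (PIFs), which are basic helix-loop-helix (bHLH) proteins, drive this growth through auxin, gibberellin and brassinosteroid genes, and they bind the G-box (CACGTG) and the PBE-box (CACATG). Light turns phytochromes into their active form, PIFs are broken down within minutes, the COP1/SPA ubiquitin ligase loses activity, and HY5 and other factors build up and turn on genes of chlorophyll synthesis and photosynthesis.

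The sequences of 3 lost and 3 gained promoter peaks are given on the plus strand of TAIR10, read from the RefSeq copy of that genome, with every PBE-box in capitals on either strand. No G-box was found in them. They were chosen after their values were seen, to show peaks of growth genes that were lost and peaks of light-associated genes that were gained. Where a gene had several such peaks, one with a PBE-box was preferred. PRE1 had another lost peak, closer to its start and without the box, of signal 77 against 67 for the one shown. All 3 lost peaks shown, and the gained ones at CHLI2 and PAR2, hold the box, which 14.9% of lost and 8.87% of gained peaks did. The first lost peak (chr5:5975161-5975310) lies between SAUR22 and SAUR23, auxin-induced growth genes transcribed away from each other.
SAUR22 and SAUR23, lost: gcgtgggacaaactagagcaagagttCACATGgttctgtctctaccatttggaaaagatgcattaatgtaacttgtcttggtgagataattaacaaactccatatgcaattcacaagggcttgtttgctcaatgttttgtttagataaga
The next was lost upstream of IAA17 (chr1:1135461-1135610), an Aux/IAA repressor of auxin signalling.
IAA17, lost: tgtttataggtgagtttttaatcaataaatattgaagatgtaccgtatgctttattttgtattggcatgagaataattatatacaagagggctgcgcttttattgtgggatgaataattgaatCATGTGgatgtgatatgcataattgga
The third was lost upstream of PRE1 (chr5:15956421-15956570), a small bHLH protein that promotes cell elongation.
PRE1, lost: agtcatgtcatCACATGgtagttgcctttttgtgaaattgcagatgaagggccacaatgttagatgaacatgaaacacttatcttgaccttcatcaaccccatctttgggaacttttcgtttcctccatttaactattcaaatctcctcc
The first gained peak (chr2:14524381-14524530) lies between LHCB1.4 and LHCB1.5, antenna proteins of photosystem II, and holds no PBE-box.
LHCB1.4 and LHCB1.5, gained: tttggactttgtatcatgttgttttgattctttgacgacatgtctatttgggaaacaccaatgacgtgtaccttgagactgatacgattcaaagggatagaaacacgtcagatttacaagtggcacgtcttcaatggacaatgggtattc
The second was gained upstream of CHLI2 (chr5:18627761-18627910), a subunit of the magnesium chelatase that commits porphyrins to chlorophyll.
CHLI2, gained: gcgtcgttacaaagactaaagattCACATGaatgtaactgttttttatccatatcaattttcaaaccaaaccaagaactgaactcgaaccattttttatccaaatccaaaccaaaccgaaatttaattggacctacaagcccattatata
The third was gained upstream of PAR2 (chr3:21761001-21761150), a small bHLH protein that phytochromes regulate rapidly and that holds back elongation.
PAR2, gained: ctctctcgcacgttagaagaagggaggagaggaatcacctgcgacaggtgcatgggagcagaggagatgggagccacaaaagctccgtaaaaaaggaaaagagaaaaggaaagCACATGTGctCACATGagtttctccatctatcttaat

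Among all 21 pairs of lists, dark and 30 min of light had the fewest peaks without a partner, 10.7% of both lists together. The next pairs were 30 min of light with 24 h (14.1%) and with 3 h (14.3%), and the dark with 24 h (15.3%) and with 3 h (15.4%). The LD control and the spray control, which differ by neither light nor heat, differed at 17.3% of peaks. The dark and 30 min libraries carry the closest numbers of all 7 libraries in the submitters' names, and whether library preparation plays a part was not tested. The depth of each library is not given, and the lists cover 4.34 Mb in the dark and 4.32 Mb after 30 min of light.

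**Figure D1:**
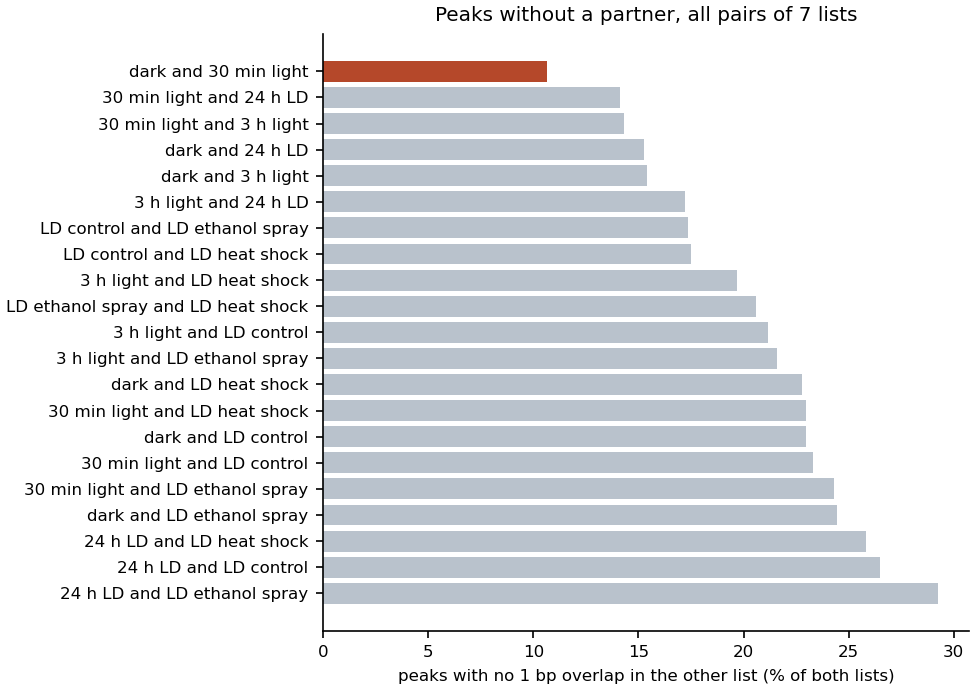
Bars give, for each of the 21 pairs of lists, the peaks of both lists that share no base with a peak of the other list, in % of all peaks of the pair. Dark and 30 min of light (dark bar) stands at 10.7%, below the other 20 pairs.

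The deposited signal is a whole number per peak that can be ranked only within its own list. Gained peaks had a median signal of 76, the median at percentile 11.5 of the 30 min list, and lost peaks had a median of 74, at percentile 13.7 of the dark list. Both kinds were concentrated at the bottom of their lists, where the lowest 10% of peaks held 1385 gained peaks (45.6% of them) and 1290 lost peaks (41.3%). Of 2882 peaks in the top 10% after 30 min of light only 40 were gained, and of 2889 in the dark 45 were lost. Weak peaks lie near the calling threshold, and no cause of their gain or loss was tested.

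Gained peaks lay closer to gene starts than lost peaks. The midpoint was within 250 bp of an annotated start of a protein-coding gene for 36.1% of gained peaks (34.4 to 37.8%), for 22.5% of lost peaks (21.1 to 24.0%) and for 44.9% of the 25790 shared peaks of the 30 min list. The median distance to the nearest start was 635 bp for gained, 967.5 bp for lost and 401 bp for shared peaks. A promoter window (1000 bp before to 200 bp after a start) held 53.6% of gained midpoints (51.9 to 55.4%), 44.5% of lost midpoints (42.8 to 46.2%) and 61.7% of shared midpoints, against 25% of the genome. The midpoint fell in an annotated 5′ UTR for 18.3% of gained and 11.5% of lost peaks. Intergenic sequence outside promoter windows held 25.7% of gained and 35.1% of lost peaks. Coding sequence outside promoter windows held 7.02% of gained, 7.07% of lost and 2.59% of shared midpoints.

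The difference in the share within 250 bp was present at low and at higher signal. Among peaks in the lowest 25% of their own list by signal, 38.4% of gained and 24.0% of lost peaks were within 250 bp of a start, beside 42.0% and 47.1% of shared peaks of the same rank in the 30 min and dark lists. Above that rank the shares were 30.0% of gained and 19.9% of lost peaks. The promoter window difference shrank with signal. In the lowest 25% these windows held 53.9% of gained and 42.8% of lost midpoints. Above that rank they held 52.9% (49.5 to 56.2%) and 47.5% (44.6 to 50.5%), and the intervals overlap. In the upper 50% by signal they held 51.7% and 50.9%. In the comparisons of 3 h and 24 h of light with the dark, which use the same dark library, 40.1% and 37.0% of gained peaks and 19.5% and 27.5% of lost peaks were within 250 bp. For the spray control against the unsprayed LD control, which share no library with these, the values were 22.2% of gained and 22.5% of lost peaks. Heat shock against LD had the opposite order, 21.2% of gained and 28.4% of lost peaks.

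**Figure D2:**
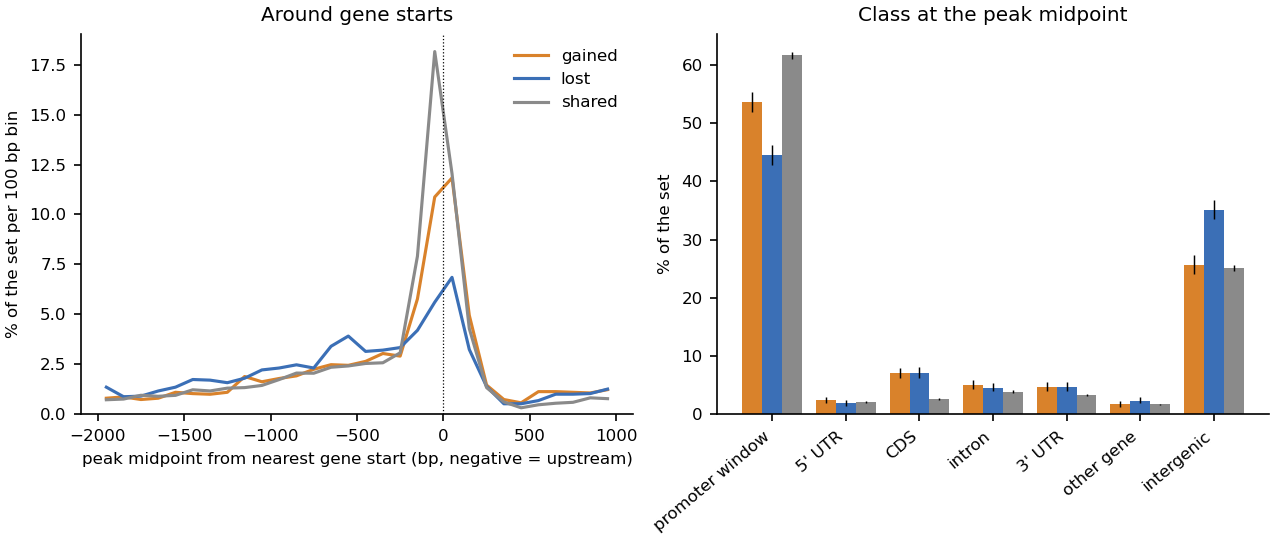
Left, the share of gained, lost and shared peaks per 100 bp bin of the distance from the peak midpoint to the nearest protein-coding gene start, negative upstream. Right, the class at the midpoint, in % of each set, with 95% Wilson intervals, where promoter windows hold 53.6% of gained, 44.5% of lost and 61.7% of shared peaks.

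Both kinds were found on all chromosomes, and lost peaks were more frequent in regions with few peaks. The gained share of the 30 min list ran from 10.3% to 10.8% over the 5 chromosomes, and the lost share of the dark list from 10.4% to 11.1%. In 101 windows of 1 Mb with at least 100 peaks in each list, the gained share ran from 5.26% to 19.5% with a median of 10.4%, and the lost share from 6.38% to 16.0% with a median of 10.4%. The other 20 windows, with fewer peaks, lie in the gene-poor regions around the centromeres. There 186 of 1032 dark peaks were lost (18.0%, 15.8 to 20.5%) and 106 of 953 30 min peaks were gained (11.1%, 9.28 to 13.3%). Over the 17 of these windows with at least 20 dark peaks the lost share ran from 5.26% to 45%, the highest on chromosome 3 with 18 of 40 dark peaks and on chromosome 5 with 38 of 88 (43.2%). Only 25.8% of the 186 lost peaks overlapped a peak at 3 h and 32.3% one in the LD control, beside 49.4% and 56.6% of the lost peaks elsewhere. They held a PBE-box in 26.9% of cases, gained peaks of these windows in 14.2% and shared dark peaks in 18.4%. Elsewhere the box was in 14.2% of lost and 8.67% of gained peaks.

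The strongest gained and lost peaks mostly had a peak of the other list close by. Among the 40 gained peaks in the top 10% of the 30 min list, 33 had a dark peak within 150 bp, and 36 of the 45 such lost peaks had a 30 min peak within 150 bp. Over all gained peaks this was so for 618 (20.4%), and over all lost peaks for 665 (21.3%). A gained and a lost peak stood within 150 bp of each other for 373 gained (12.3%) and 371 lost peaks (11.9%). At the edge of the rule, 74 peaks of the 30 min list counted as shared by an overlap of 10 bp, the smallest seen, and 69 counted as gained with at most 10 bases between them and a dark peak. Their median percentiles were 30.3 and 39.2. In the dark list, 76 such shared and 66 such lost peaks had median percentiles of 29.1 and 35.2.

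ABO3, a WRKY factor of abscisic acid response, had such a pair, a gained peak of signal 771 (percentile 97.8) and a lost peak of signal 540 (percentile 96.4) separated by 30 bp. Both windows are upstream of the gene, at chr1:24847821-24847970 and chr1:24848001-24848150, and the gained one holds a PBE-box in capitals.
ABO3, gained: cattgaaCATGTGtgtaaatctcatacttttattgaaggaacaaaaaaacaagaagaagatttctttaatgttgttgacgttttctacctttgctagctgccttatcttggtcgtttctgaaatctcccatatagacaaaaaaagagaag
ABO3, lost: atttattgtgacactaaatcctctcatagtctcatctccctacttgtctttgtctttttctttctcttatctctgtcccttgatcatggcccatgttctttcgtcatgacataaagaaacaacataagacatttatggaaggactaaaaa
PME1, a pectin methylesterase, had a gained peak of signal 722 (percentile 97.1) 30 bp from a lost peak of signal 474 (percentile 94.3). UPB1, a bHLH regulator of root growth through peroxidases, had a gained peak of 652 (percentile 95.7) 30 bp from a lost peak of 506 (percentile 95.5). Other gained peaks among the 10 strongest at promoters lay at AT3G56360, AT3G61420, FAP1, a fatty acid-binding chalcone isomerase relative, AT5G15260, AT1G02290, AT5G65910 and AT3G57540. The strongest lost promoter peak, of signal 856 (percentile 99.5), lay upstream of TPL, the TOPLESS corepressor, 90 bp from the nearest 30 min peak. The next, of signal 671 (percentile 98.4), lay between AT2G46360 and SPA1, which encodes a partner of COP1, 130 bp from a 30 min peak. The others were at MPK9, a MAP kinase (599), ERD6, a sugar transporter of the major facilitator family (509), AT1G28260 (474), AT1G02300 (457) and HB52, a homeobox factor (454).

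Gained peaks were found again in later light more often than lost peaks. Of gained peaks, 58.0% (56.3 to 59.8%) overlapped a peak at 3 h and 41.2% (39.5 to 43.0%) at 24 h, against 48.0% (46.2 to 49.7%) and 31.4% (29.8 to 33.1%) of lost peaks and 93.1% and 87.6% of shared peaks. At both later times 888 gained peaks (29.3%) were present and 622 lost peaks (19.9%) were back. At neither time were 910 gained peaks (30.0%) and 1265 lost peaks (40.5%) found. In the LD control the order differed, with 51.8% of gained (49.97 to 53.5%) and 55.1% of lost peaks (53.4 to 56.9%). In none of the other 5 lists were 461 gained peaks (15.2%), 548 lost peaks (17.5%) and 242 shared peaks (0.938%) found. Shared peaks recurred more at higher signal, so peaks of the same low rank were set side by side: 56.3% of 1385 gained and 77.3% of 1505 shared peaks of that rank in the 30 min list were found at 3 h.

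Gained promoter peaks that were also present at 3 h, at 24 h and in the LD control were led by AT5G15260 (signal 584, percentile 93.8), AT4G33467, AT1G23040, AT1G65510, AT5G52840, APS4, AT2G39865, AT1G10140, AT3G62260 and AIRP2, a RING ubiquitin ligase of abscisic acid response. Each of these gained peaks had a dark peak close by, at gaps from 10 bp (AT5G15260) to 110 bp (AT3G62260). None of them stays gained if a peak within 150 bp counts as shared. Lost promoter peaks absent from those 3 lists were led by AT1G28260 (signal 474, percentile 94.3), ftsh3, a mitochondrial protease (433), AT2G01023 (427), MYBL2, a MYB repressor of anthocyanin synthesis (411), and AT2G25482 (403). The other 5 lay at AT1G65510, AT4G25620, AT4G35750, DIN2 and NPX1. Among these lost peaks, only those of MYBL2 (gap 270 bp) and DIN2 (gap 230 bp) had no peak of the other list within 150 bp. At AT1G65510 the gained and the lost peak lay 70 bp apart. The DIN2 peak, 297 in the dark at percentile 81.9, lay within the 5′ UTR of this dark-induced beta-glucosidase gene and was in none of the other 6 lists.

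**Figure D3:**
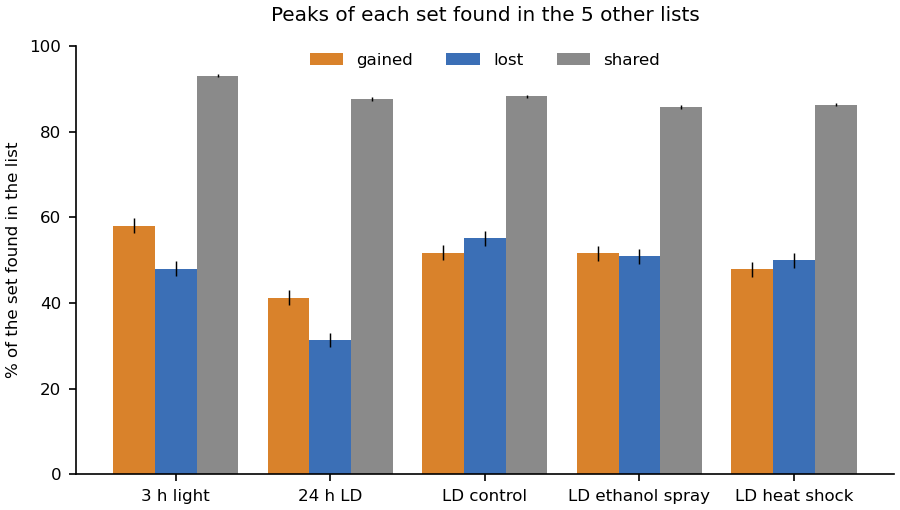
Bars give the share of gained, lost and shared peaks that overlap a peak of each of the other 5 lists by at least 1 bp, in %, with 95% Wilson intervals. At 3 h and 24 h of light the gained share (58.0% and 41.2%) is above the lost share (48.0% and 31.4%).

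Lost peaks held the PBE-box more often than gained or shared peaks. In the 150 bp around the midpoint, CACATG on either strand was present in 466 of 3124 lost peaks, 14.9% (13.7 to 16.2%), and in 269 of 3034 gained peaks, 8.87% (7.91 to 9.93%). It was in 11.3% of shared peaks of the 30 min list, in 11.5% of those of the dark list and in 6.94% of all 794306 such windows tiling the genome. The intervals of lost, gained and shared peaks do not overlap. The order held within promoter windows, where 12.6% of lost, 7.25% of gained and 9.42% of shared peaks had the box, and in intergenic sequence, with 19.3%, 12.6% and 15.2%. In the lowest 25% of each list by signal, 14.4% of lost and 8.60% of gained peaks had it, beside 10.7% and 11.8% of shared peaks of the same rank in the dark and 30 min lists. In the upper 50% by signal the gap was smaller, 51 of 334 lost (15.3%, 11.8 to 19.5%) and 39 of 296 gained peaks (13.2%, 9.79 to 17.5%), and the intervals overlap there. Among peaks absent at both 3 h and 24 h, lost peaks (16.8%, 14.8 to 18.9%) did not stand above shared ones (15.5% in the 30 min list and 17.0% in the dark list), and gained peaks had 10.1% (8.32 to 12.2%).

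Among 1773 sequences of 6 bases, counted with their reverse complement and present in at least 120 gained and lost peaks, CACATG had the largest excess in lost over gained peaks, 6.05 percentage points. Differences in points favour common sequences, and by the ratio of the shares, 1.68, it was 8th, behind rarer sequences led by GCATCC (1.83). This count over all sequences was added after the PBE-box result was seen. The other members of the CANNTG family to which it belongs differed by at most 1.53 points: CATATG was in 6.21% of lost and 4.78% of gained peaks, CAAATG in 14.0% and 12.4%, and CAACTG in 4.42% and 4.55%. The G-box, which PIFs and HY5 both bind, was in 6.498% of lost (5.69 to 7.42%) and 5.21% of gained peaks (4.47 to 6.06%), and in 10.5% of shared peaks. The next in the order were ACACAT, which overlaps CACATG by 5 bases, in 16.4% of lost and 12.2% of gained peaks, and ACTCAT, in 11.97% of lost and 8.11% of gained peaks. ACTCAT is known as a site for group S bZIP factors in genes of proline breakdown, and shared peaks held it in 8.42% of cases.

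In the comparisons of 3 h and 24 h of light with the dark, 16.2% and 14.4% of lost peaks and 8.94% and 8.57% of gained peaks held the PBE-box, and these use the same dark list. For the spray control against the unsprayed LD control, 13.4% of lost and 10.98% of gained peaks held it, and for heat shock against LD 13.1% and 11.4%. A match is a description of the sequence and not of bound protein.

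Some other motifs were more frequent in gained than in lost peaks. The W-box TTGACC, bound by WRKY factors, was in 11.9% of gained (10.8 to 13.1%) and 9.06% of lost peaks (8.10 to 10.1%), and the telo-box AAACCCTA, common upstream of ribosomal protein genes, in 2.50% and 1.31%. The GCC-box GCCGCC, bound by ethylene response factors, was in 2.31% of gained (1.83 to 2.90%) and 1.12% of lost peaks (0.807 to 1.55%). The auxin response element TGTCTC went the other way, 8.17% of gained (7.25 to 9.20%) and 11.1% of lost peaks (10.02 to 12.2%). AGTCAA had the largest excess in gained peaks of all 6-base sequences, 17.5% against 12.9%. The site II element TGGGCC, a TCP site, was in 21.1% of shared peaks and in 9.20% of gained and 7.30% of lost peaks. The I-box GATAAG (8.998% and 9.96%), the dehydration-responsive element GCCGAC (2.54% and 1.82%) and the evening element AAAATATCT (0.659% and 0.512%) had overlapping intervals in gained and lost peaks.

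**Figure D4:**
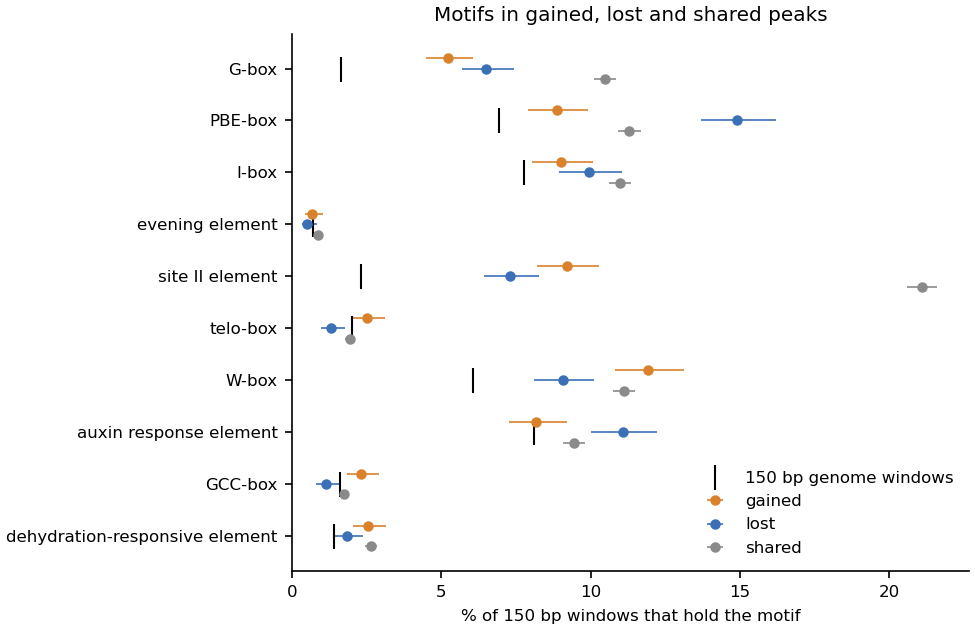
Points give the share of 150 bp windows around the midpoints of gained, lost and shared peaks that hold each motif on either strand, in %, with 95% Wilson intervals, and black ticks give the share of all 150 bp genome windows. The PBE-box is the motif with the widest gap between lost (14.9%) and gained (8.87%) peaks.

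At genes, 1866 of 27444 protein-coding genes had a gained peak touching their promoter window, 6.8% of all and 10.9% of the 17090 genes with a promoter peak after 30 min of light. A lost promoter peak was found at 1618 genes, 5.9% of all and 9.71% of the 16669 genes with a promoter peak in the dark. Both kinds occurred at 283 genes. For 925 of the genes with a gained peak there had been no promoter peak in the dark, and for 508 of those with a lost peak none was left at 30 min. Of the 348 genes in 22 hand-made lists, 30 (8.62%) had a gained and 37 (10.6%) a lost promoter peak.

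The lists of hormone growth genes had more lost than gained peaks, each count is small, and all 348 list members together already stand at 10.6% lost. In the gibberellin and brassinosteroid list 5 of 23 genes (21.7%) had a lost and 2 a gained promoter peak, beside 5.9% and 6.8% of all genes. The lost ones lay at RGA, GAI and RGL3, which encode DELLA repressors of gibberellin growth, at BZR1, a brassinosteroid response factor, and at BAS1, a cytochrome P450 that inactivates brassinosteroids. The RGA peak had signal 118 (percentile 36.7) and 1 promoter peak was left of 2, and the GAI peak had 161 (percentile 54.5) and 2 were left of 3. The RGL3 peak, signal 132 (percentile 43.6), held a PBE-box. BAS1 had a lost peak of 233 and a gained peak of 225 separated by 70 bp. RGL2, another DELLA gene, had the other gained peak, weak at signal 61. Counting a peak within 150 bp as shared left 2 lost and 1 gained in this list.

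In the list of Aux/IAA, SAUR and auxin synthesis genes, 6 of 31 (19.4%, beside 5.9% of all genes) had lost peaks. Gained ones were at 2 (6.45%, near the 6.8% of all genes), IAA27 and the auxin synthesis gene YUC2. The 6 lost genes shared 5 peaks, all with signals of 70 to 125 in the dark, below the median of that list. A PBE-box was in 3 of the 5, those of IAA6, IAA17 and SAUR22 with SAUR23, beside 12.6% of all lost peaks in promoter windows. In the cell wall growth list and the gibberellin and brassinosteroid list, 1 of 5 lost peaks each held it. IAA29 (signal 70) and the SAUR22 and SAUR23 pair (signal 77) were left with no promoter peak at 30 min. No auxin or cell wall gene of these lists had a lost peak in the upper 50% by signal. In the cell wall growth list 5 of 18 genes (27.8%) had lost peaks and 2 (11.1%), XTH18 and XTH24, gained ones. Lost were peaks of the expansins EXPA2 (61), EXPA6 (60) and EXPA10 (52) and of the xyloglucan endotransglucosylases XTH19 (105) and XTH33 (49). XTH24 had one of the stronger gained peaks of any list member, 508 at percentile 90.8.

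SAUR genes and bHLH genes, 2 families chosen by product name after their values were seen, showed the same lean. Of 78 SAUR genes, 13 (16.7%) had a lost and 4 a gained promoter peak. These 13 include SAUR22 and SAUR23, already counted in the auxin list. Of the 54 with a dark promoter peak the lost ones are 24.1%, beside 9.71% of all such genes. Their 12 lost peaks had signals of 46 to 125. A PBE-box was in 5 of the 12, at AT1G29450, SAUR29, AT4G13790, AT4G38825 and SAUR22 with SAUR23, and in none of their 4 gained peaks. Of all lost peaks in promoter windows 12.6% held it. Shared promoter peaks of SAUR genes were not searched as a set, so lost and shared SAUR peaks cannot be compared. The box was in 3 of 20 lost peaks of bHLH genes, 0 of 14 of homeobox genes and 0 of 7 of bZIP genes. Over the 22 lists 7 of 37 lost and 4 of 30 gained peaks had it. Only 2 of the 12 lost SAUR peaks overlapped a peak at 3 h and 1 at 24 h, while 8 overlapped one in the LD control.

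Of 132 genes with bHLH in their product name, which leaves out PAR2 and UPB1, 19 (14.4%) had a lost and 11 a gained promoter peak. Among the lost were 2 peaks of PRE1, of signals 67 and 77, and 1 each of KDR (63), a small growth-promoting bHLH protein like PRE1, and of MYC3 (141), a jasmonate response factor. HEC2 (63), a HECATE factor known to bind PIFs, lost 1 too. So did 3 genes of the iron deficiency response, bHLH38 (61), BHLH100 (230) and PYE (70). The PIF genes in the lists had none: PIF3 had 1 and PIF4 2 promoter peaks in each of the 7 lists. Homeobox genes had 12 lost and 9 gained of 112, with HB52 losing 2 (454 and 66) and leaving 1 of 3, and genes named bZIP in their product, which leaves out BZIP53, 7 lost and 2 gained of 62. Ribosomal protein genes had 22 gained (6.40%) and 13 lost (3.78%) of 344, and UDP-glycosyltransferase genes 16 gained (12.2%) and 11 lost (8.40%) of 131. Over all genes the shares are 6.8% gained and 5.9% lost, so the gained shares of ribosomal protein and homeobox genes (8.04%) are near them.

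Genes of chlorophyll synthesis and the antenna had more gained than lost peaks, and the counts are small and most of the peaks weak. In the chlorophyll synthesis list 4 of 19 (21.1%, beside 6.8% of all genes) had a gained promoter peak, HEMB1 (signal 59), CHLD (89), CHLI1 (63) and CHLI2 (56), and 1, GSA2, a lost one (115). CHLD, CHLI1 and CHLI2 encode subunits of magnesium chelatase and HEMB1 and GSA2 act earlier in tetrapyrrole synthesis. HEMB1, CHLI1 and CHLI2 had no promoter peak in the dark and all 4 gained peaks overlapped a peak at 3 h. In the list of antenna and photosystem proteins 4 of 42 (9.52%) had gained peaks, on 3 distinct sites, a share near the 6.8% of all genes, and 0 had lost ones, beside 5.9%. Over the gene body with 1000 bp upstream 6 had gained and 2 lost peaks, and with 75 bp of overlap needed to share a peak 7 and 3. LHCB1.4 and LHCB1.5 shared 1 peak of signal 57, at percentile 1.3 of the 30 min list. The same site carried a signal of 76 at 3 h (percentile 9.7), 83 at 24 h (percentile 19.5) and 1770 in the LD control (percentile 97.9 of that list), and was not in the dark list. LHCA5, of photosystem I, had a gained peak of 60 whose site was in the other 5 lists too, and PSAG one of 133 that was absent at 3 h and 24 h.

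In carbon fixation 1 of 16 genes (6.25%, near the 6.8% of all genes) had a gained peak, RBCS1A (78, within its 5′ UTR). Lost ones were at 2 (12.5%, beside 5.9% of all genes), RBCS2B (61) and SBPASE (64), both with a G-box. The RBCS2B site was at percentile 4.6 in the dark list, not in the 30 min list, at 4.0 at 3 h and at 96.2 in the LD control. LHCB1.3 had no promoter peak in the dark or at 30 min and at 3 h, 1 at 24 h and 2 in the LD control. ELIP2, an early light-induced protein, and HYH, the HY5 homologue, had none in the dark or at 30 min and 1 each at 3 h.

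None of the 13 photoreceptor genes had a gained or lost promoter peak, and PHYA and PHYB had 2 promoter peaks each in both lists. UVR8, the UV-B receptor, had 1 in the dark and 0 at 30 min, and the dark one was not called lost because a 30 min peak outside the window overlapped it. HY5, COP1, CCA1, IAA19 and ACT2 each had 1 promoter peak in both. Of 23 light signalling factors 3 (13.0%, beside 6.8% of all genes) had gained peaks, PAR2 (64), BBX20 (138) and BBX25 (70), the last 2 being B-box proteins. FHL, which carries phytochrome A into the nucleus, had a lost peak (109). Of 10 repressors of photomorphogenesis, 2 had lost peaks, beside 5.9% of all genes: SPA1 had a lost peak and SPA4 a lost one of 80 between 2 gained ones of 53 and 82. In the clock list, RVE8 had a gained (68) and a lost peak (117) and PRR7 a lost one (154), 5.26% gained and 10.5% lost of 19 genes. In light protection and flavonoid synthesis F3H had a gained (111) and TT4 a lost peak (104), 6.67% of 15 genes for each kind.

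Among 11 genes of darkness and sugar starvation, 3 (27.3%, beside 5.9% of all genes) had lost peaks, DIN2, DIN10 (148) and MCCA (260). A gained one (508, percentile 90.8) was at 1, DIN10 (9.09%, beside 6.8% of all genes). It lay 90 bp from a dark peak, and counting a peak within 150 bp as shared left 0 gained and 2 lost in this list. DIN10 is a raffinose synthase relative and MCCA part of leucine breakdown. In the ethylene and apical hook list CTR1 and EIN2 gained, and ACS8 and ERF1 lost, a peak, 11.1% of 18 genes for each kind. In the list of touch, wound, cold and rapid stress genes JAZ8 gained and JAZ1 lost 1. That is 5.56% of 18 for each kind, near the shares of all genes. For comparison, 3 of 13 housekeeping genes (23.1%, the highest gained share of the 22 lists) had gained (ACT7, GAPC1 and TIP41) and 2 (15.4%) lost promoter peaks (GAPC1 and TIP41). Of all protein-coding genes 60.7% had a promoter peak in the dark. Most lists of tissue markers lay below that: 2 of 10 seed storage, 4 of 11 root, 2 of 6 epidermis, 2 of 8 vascular and 2 of 7 shoot meristem genes had one. Guard cell genes, with 5 of 7, lay above it. Lost peaks of these tissue markers lay at CRC, SHR, GL2 and SUC2 and their gained peaks at SHR and MYB36.

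**Figure D5:**
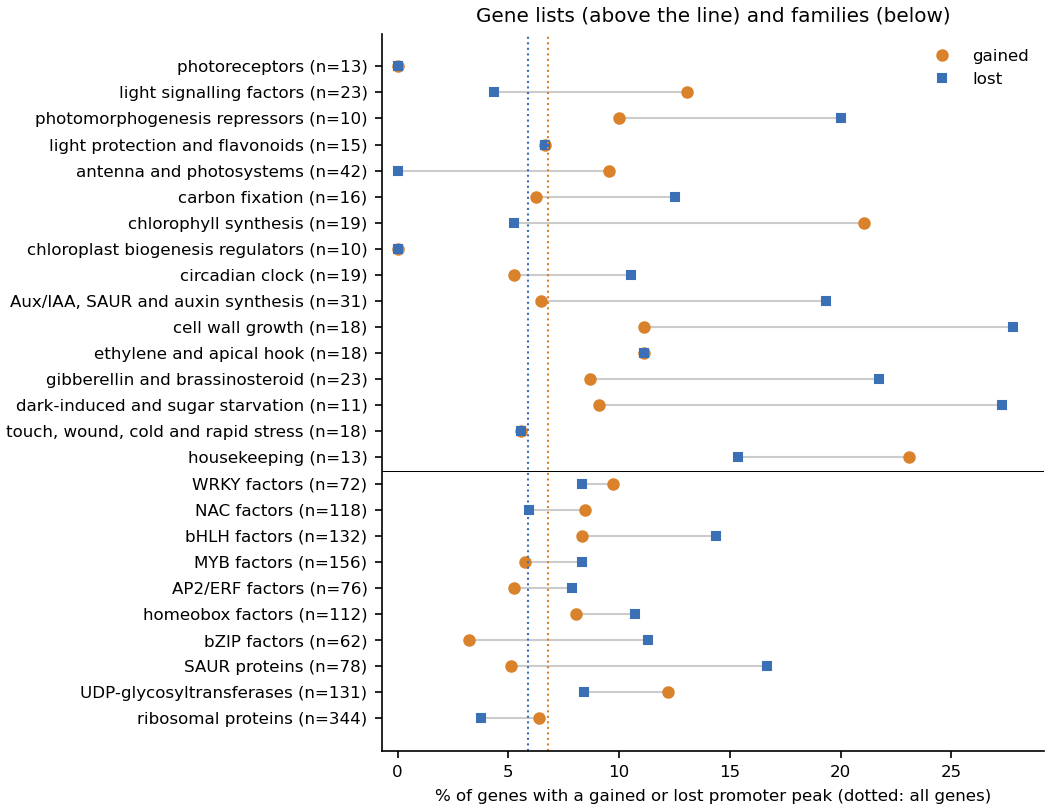
Points give the share of genes in each list or family that have a gained (circles) or lost (squares) promoter peak, in %, with the number of genes in brackets and dotted lines at 6.8% (gained) and 5.9% (lost) for all protein-coding genes. Hormone and cell wall lists, SAUR and bHLH genes lie right of the lost line, but so do many other lists, housekeeping genes (15.4%) among them, and all 348 list members together stand at 10.6%.

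Some genes had several peaks of 1 kind. A pair of gained promoter peaks was found at 45 genes and a pair of lost ones at 55. By summed signal the gained pairs were led by AT1G14330, TGA1, PLS, APS4, NYE1, AT2G45040, AT4G37710, AT2G45220, SMZ and AT5G67430. TGA1, a bZIP factor of defence and nitrate response, had 2 promoter peaks in the dark and 4 at 30 min, and NYE1, which removes magnesium from chlorophyll, 1 and 3. The lost pairs were led by AT2G07629, HB52, AT1G15490, BZIP53, MSH7, AT2G42040, AT1G35560, AT2G07739, MT3 and SCL3. AT2G07629 and AT2G07739 lie in the same 1 Mb window of chromosome 2, among the windows with few peaks, where 18 of 89 dark peaks (20.2%) were lost. BZIP53, a group S bZIP factor of starvation response, had 3 promoter peaks in the dark and 1 at 30 min, SCL3, a GRAS protein that acts with the DELLA proteins in gibberellin response, 3 and 1, and the metallothionein MT3 2 and 0.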

How the data were processed

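DNase I-seq peak lists of 7 conditions were used. RNA-seq samples were not analysed here. Single-end and paired-end samples of the same library had byte-identical peak files and were counted once. Per the submitters' processing notes, Bowtie 0.12.7, CASAVA 1.8.2 and the TAIR10 build were used, and the TAIR10 coordinates are kept. Not given in the sources used here are the depth, the peak caller and its threshold. The series text states that some samples were subsampled to equal depth, without saying which. The deposited signal is the authors' whole number per peak, with no normalization stated, and was ranked only within a list. The deposited −log10 p-value ends at 324 for 11.3% of dark and 18.7% of 30 min peaks and was not used for ranking. Nearly all peaks are 150 bp wide.

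Gene models were those of RefSeq for TAIR10.1. The build was checked by moving the 30 min peaks by 5000 bp, which took the share in promoter windows from 60.8% to 27.9%. Overlaps, promoter windows (1000 bp upstream to 200 bp downstream), Wilson intervals at the 95% level and motif searches (150 bp, both strands) were computed in Python 3.11.15 with numpy 2.4.6, pandas 2.3.3 and scipy 1.17.1, and overlap calls were tested on simulated data. The pair, the lists, motifs and windows were chosen with earlier results of these data known. Named genes are list members with gained or lost promoter peaks, the 10 strongest promoter peaks of each kind, genes with at least 2, up to 10 recurring or persistently lost, and a fixed set of regulators. Families, 6-base sequences, printed sequences and other genes were chosen after their values were seen.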

Additional observations from a re-analysis of the deposited data

How the results depend on the processing

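Requiring 75 bp of overlap to call a peak shared gave 4639 gained and 4732 lost peaks, 2914 genes with a gained and 2671 with a lost promoter peak, and 50 and 58 list members. It also gave 68.9% of gained and 61.5% of lost peaks found at 3 h, 55.5% and 48.5% at 24 h, 48.7% of lost midpoints in promoter windows and 28.4% of lost peaks within 250 bp of a start. Only the upper 50% by signal left 296 gained and 334 lost peaks, 187 and 205 genes, and 5 and 10 list members. There 51.7% of gained and 50.9% of lost midpoints were in promoter windows, 31.8% of gained peaks were within 250 bp of a start, 51.7% and 43.1% were found at 24 h, 45.5% of lost peaks at 3 h, and 13.2% of gained peaks held a PBE-box. Among those strong peaks 23.4% of lost ones were within 250 bp of a start. Counting a peak within 150 bp as shared gave 38.5% of gained and 27.7% of lost peaks at 24 h. A 75 bp overlap with the other lists gave 51.5% and 40.8% at 3 h and 30.8% and 24.4% at 24 h. Any overlap with a promoter window held 56.0% of gained and 47.4% of lost peaks. In each gained and lost pair of location or later-light shares given so far in this paragraph, the gained share was higher. For promoter windows in the upper 50% by signal it was higher by little, 51.7% against 50.9%. Lists cut to equal length moved no count by over 1.5 times. A shorter promoter window, run for all genes and the SAUR and bHLH families, gave 1405 and 1081 genes and 8 SAUR genes with a lost peak, against 13. Without the 20 windows of 1 Mb with few peaks, 2928 gained and 2938 lost peaks were left, and 14.2% of lost and 8.67% of gained peaks held a PBE-box. No SAUR gene and 1 bHLH gene had a lost peak in the upper 50% by signal, and 14 bHLH and 11 SAUR genes when a peak within 150 bp counted as shared. The gibberellin and brassinosteroid list then had 2 lost. The auxin and cell wall lists had 0 lost, and the chlorophyll and antenna lists 0 gained, in the upper 50% by signal. Over the gene body with 1000 bp upstream, 29 bHLH genes had a lost and 17 a gained peak, and with 75 bp of overlap 20 SAUR genes had a lost and 12 a gained one. Except for the 75 bp overlap with the other lists and the promoter overlap, settings for shares, list members and families were added after the data were seen. No paired analysis was possible because each condition has 1 library. With unknown depth, peaks near the threshold limit what absence from a list shows.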

Other observations

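Of 326 microRNA genes, 16 (4.91%) had a lost and 8 (2.45%) a gained peak in the promoter window, shares below the 5.9% and 6.8% of protein-coding genes. MIR160a, MIR164b and MIR5026 had both kinds. MIR160a and MIR160c, whose product targets auxin response factors, had lost peaks, as did MIR166d and MIR166f, whose product targets HD-ZIP III factors, and MIR858a, whose product targets MYB factors. MIR167a and MIR393a, which act on auxin response factors and auxin receptors, had gained peaks. Among 625 tRNA genes 49 (7.84%) had a gained and 51 (8.16%) a lost peak, and among 287 small nucleolar RNA genes 8 (2.79%) and 6 (2.09%).

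Counted over the whole gene from start to end, AT3G57800, which encodes a bHLH protein, had 4 gained peaks, with 2 peaks in the dark and 5 at 30 min. CSLD3, a cellulose synthase-like protein of root hairs, had 0 peaks in the dark and 2 at 30 min. PIN7, an auxin efflux carrier, had 3 in the dark and 1 at 30 min, and MBF1C, a heat-response coactivator, 2 and 1. These genes were chosen after their values were seen.

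The 6-base sequence with the largest ratio of gained to lost shares was CGGCGA, in 96 gained peaks (3.16%) and 34 lost peaks (1.09%), with 2.16% in shared peaks of the 30 min list. Mean GC content was 35.6% in gained, 36.0% in lost and 36.9% in shared peaks.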
